A study of Mus musculus with 10 samples.

Results

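The integrated stress response and serine synthesis were followed in cardiac endothelial cells (ECs) through 10 genes, which were chosen by name out of 46983 genes counted: Atf4, Atf5, Ddit3, Trib3, Asns, Phgdh, Psat1, Psph, Shmt2 and Mthfd2. Messenger RNA was measured in CD31+ cells, isolated with antibody-coated magnetic beads from the hearts of male wild-type C57BL/6J mice. The hearts had first been digested with collagenase and dispase. From an age of 8 weeks, 5 mice were fed a control diet with 11.6% of its energy as fat, and 5 mice a ketogenic diet with 89.5%, for 14 days. No gene was deleted and no transgene was carried in either group, and the comparison asked how gene expression in cardiac ECs differed between the diets. The libraries of a diet are numbered 1 to 5 and were taken as separate mice. If they were not, the p-values measure only the spread between libraries.

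In the integrated stress response, kinases that sense amino acid shortage, unfolded protein in the endoplasmic reticulum (ER), double-stranded RNA or lack of heme phosphorylate the translation factor eIF2. Most protein synthesis then slows, while translation of ATF4 is favoured, so ATF4 protein can change with little change in its mRNA. ATF4 in turn drives genes for amino acid import and synthesis, among them the enzymes that make serine from a glycolytic intermediate and the mitochondrial enzymes that pass its carbon to folate.

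Each library held 10885154 to 12710861 reads on genes, and all 10 genes had enough reads to be tested. Values below are normalized counts, that is, reads scaled by edgeR to a library of average size, unless RPKM (reads scaled to gene length and library size by the authors) is named. The summed normalized count of 10 endothelial markers, such as Pecam1 and Cdh5, was 56835 to 60686 in control mice and 55674 to 62965 in ketogenic mice (two-sided exact permutation test, p = 0.762). Markers of other cells were present too, and none of them was at 0 in every mouse. The sum of 8 mural markers was 28796.5 to 31134 on the control diet and 27782 to 31029 on the ketogenic diet. For 8 fibroblast markers it was 8215 to 9136 and 7938 to 9682, respectively. The sum of 10 cardiomyocyte markers was 5843 to 8026 on the control diet and 7190.0 to 10591 on the ketogenic diet (exact permutation p = 0.0159). The sum of 9 lymphocyte markers was 3007 to 4443 and 2466 to 3024, respectively (exact permutation p = 0.0159). For 8 macrophage markers the sum was 2549 to 9106 and 2337 to 4528, and control mouse 1 stood apart with 2374 normalized counts of Adgre1, a macrophage receptor, against 25.3 to 613 in the other 9 mice. The sums of fibroblast, mural and immediate early genes did not differ detectably (exact permutation p = 0.683, 0.429 and 0.198). For 12 immediate early genes the sum was 38909 to 42021 on the control diet and 36403 to 42474 on the ketogenic diet. Of these 12 genes, 11 had a log2 fold change, ketogenic over control diet, below 0 (median -0.08). This stands beside 51.4% of all tested genes (median -0.01). The part of these cells in the results below was not tested beyond the fits with marker scores, and in bulk samples fewer cells of a type cannot be told apart from less RNA per cell.

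Gene promoters that answer to ATF4 often hold a C/EBP-ATF response element (CARE), with the letters TGATGNAA. RefSeq promoters on GRCm38.p6, from 250 bases before to 50 bases after a start, were found for all 10 genes (12 promoters) and were searched on both strands. The CARE letters stood in 3.97% of 32851 promoters of this length. Among the 10 genes they stood in those of Asns and Trib3, and among 27 other ATF4 targets with a promoter in the table they stood in 11. The other letters searched, the cAMP response element TGACGTCA (1.79% of promoters) and the ER stress response element (CCAAT, 9 bases and CCACG, 0.119% of promoters), were in none of the 12 promoters. The following 30 bases around the match are shown for Asns and Trib3 and for 4 ATF4 targets that are described below, because they set the shared letters side by side. They are written 5′ to 3′ on the strand of the gene, and the capitals mark the CARE letters, read on either strand.
Asns, chr6:7693214-7693243, minus strand: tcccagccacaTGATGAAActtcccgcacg
Trib3, chr2:152344028-152344057, minus strand: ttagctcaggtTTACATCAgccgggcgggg
Pycr1, chr11:120643833-120643862, minus strand: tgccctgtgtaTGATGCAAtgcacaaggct
Chac1, chr2:119351038-119351067, plus strand: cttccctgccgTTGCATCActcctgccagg
Atf3, chr1:191183425-191183454, minus strand: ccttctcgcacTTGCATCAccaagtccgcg
Slc7a11, chr3:50443652-50443681, minus strand: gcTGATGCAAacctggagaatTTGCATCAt
The match began at position -23 from the RefSeq start in Asns, at +15 in Trib3, at -103 in Pycr1, at -193 in Chac1 and at -110 in Atf3. Slc7a11 held a pair of matches, at -66 and -47. The GENCODE starts of Asns and Trib3 differ from these RefSeq starts. By the GENCODE spans given below, the Asns match lies inside the gene and the Trib3 match lies before its start. A match of letters is a description and not a measured binding site.

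Per length, Atf4 was the most abundant of the 10 genes, with a mean of 120.8 RPKM over the 10 mice (range 114.7 to 127.3), which is above the level of 99.2% of tested genes. Ddit3 followed with 46.9 RPKM and Shmt2 with 40.3 RPKM. The ranges of these neighbours overlapped, but Ddit3 was above Shmt2 in 10 of 10 mice. Asns (21.8 RPKM) and Trib3 (19.7 RPKM) overlapped, and Asns was the higher in 6 of 10 mice. Psph had 5.97 RPKM, Mthfd2 4.13 RPKM, Atf5 3.52 RPKM and Psat1 2.19 RPKM. Mthfd2 and Atf5 overlapped, as did Atf5 and Psat1, while Psph stood above Mthfd2 without overlap. Phgdh, which encodes the first enzyme of serine synthesis, was by far the lowest, at 0.472 RPKM (range 0.319 to 0.674), above only 8.32% of tested genes. The mRNA levels of the 3 serine synthesis enzymes were thus in the order Psph, Psat1, Phgdh in every mouse. The order rests on the gene lengths that the deposited RPKM imply, which differ from the exonic lengths in GENCODE M21 (for example 2305 against 3109 bases for Shmt2 and 3989 against 2735 for Asns). Per exonic length the ranges of Asns and Shmt2 overlapped and Asns was the higher in 6 of 10 mice, with the other genes in the same order. All levels are those of bulk CD31+ samples after enzymatic digestion of the heart, and the part of the isolation in them was not tested.

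**Figure D1:**
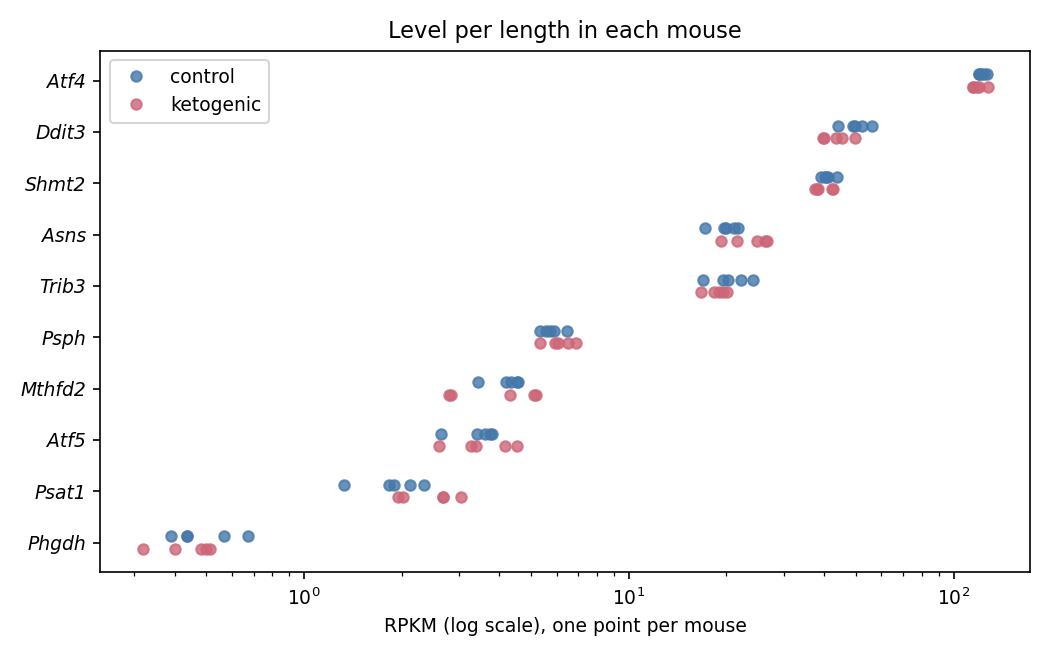
RPKM of the 10 genes on a log axis, with one point for each mouse and the diets in separate colors. Atf4 lies between 114.7 and 127.3 RPKM and Phgdh between 0.319 and 0.674 RPKM, and the points of both diets overlap for every gene.

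The diets were compared by edgeR's quasi-likelihood test over 15949 genes with Benjamini-Hochberg adjustment. None of the 10 genes had an adjusted p-value under 0.05, where 1.34% of all tested genes did (0.809% with higher and 0.527% with lower counts on the ketogenic diet). Without adjustment, 3 of the 10 had a p-value under 0.05, against 17.8% of all tested genes. These were Asns and Psat1 with higher means after ketogenic feeding (8.57% of all genes) and Ddit3 with a lower mean (9.26% of all genes). DESeq2 and limma also called none of the 10 with adjustment. The normalized counts of the diets overlapped for all 10, while 4.34% of tested genes had no overlap. The median log2 fold change of the 10 genes, ketogenic over control diet, was -0.05, beside -0.01 over all tested genes, and 6 of 10 were below 0, beside 51.4%.

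**Figure D2:**
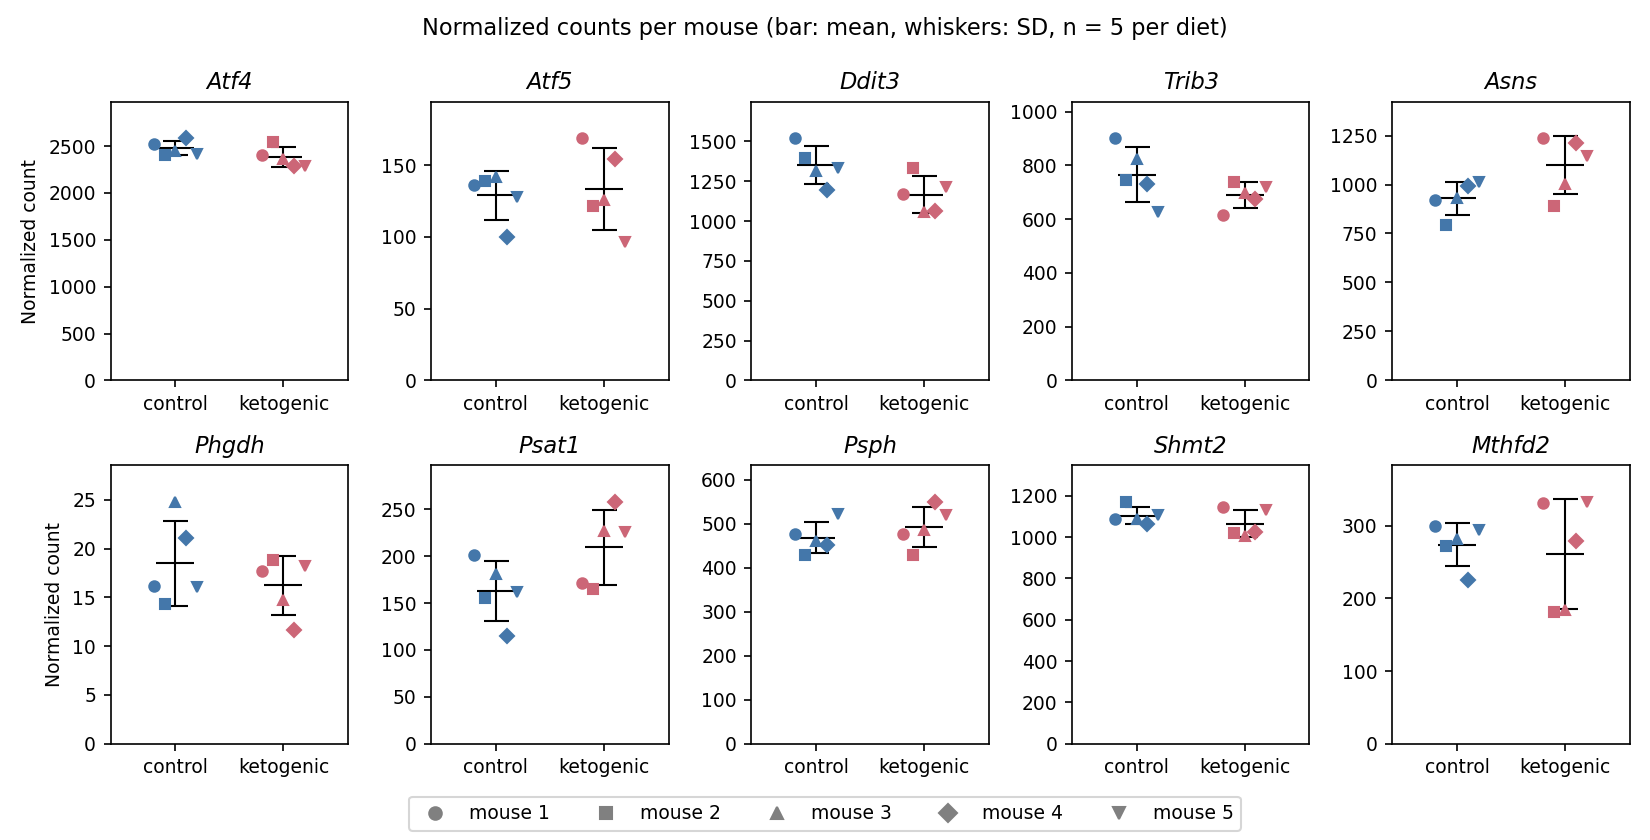
Normalized counts of the 10 genes in each mouse, with a panel per gene, marker shapes for mouse numbers 1 to 5 of a diet, a bar at the mean and whiskers for the SD (n = 5 per diet). Asns and Psat1 have higher means and Ddit3 a lower mean on the ketogenic diet, with overlapping mice in each panel.

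Atf4 (ENSMUSG00000042406.7, chromosome 15 from 80255184 to 80257541 on GRCm38) encodes the transcription factor at the center of the response. Its normalized counts were 2522, 2409, 2452, 2584 and 2415 in control mice 1 to 5 and 2407, 2548, 2364, 2293 and 2292 in ketogenic mice 1 to 5. Of the ketogenic mice, 4 of 5 lay below all control mice, and ketogenic mouse 2 lay inside the control range. The means were 2477 ± 75.2 and 2381 ± 106 (SD, n = 5 each), and the log2 fold change was -0.06 (standard error, SE, 0.0376, 95% interval -0.14 to 0.02, adjusted p = 0.453 by edgeR).

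The raw counts of Atf4 hardly moved between libraries. They ran from 2335 to 2527 reads, a range of 7.92% of their mean, while the library totals ranged over 15.7% of theirs. The deposited counts hold roughly 1 read for each start position and strand at most: of 32378 genes, 5 had a count above the number of positions on both strands of the length that the deposited RPKM imply. Atf4 filled 67.7% to 73.3% of these positions, and for such a gene a difference in mRNA can appear as a smaller difference in counts. Unscaled, the mean raw counts of Atf4 were 2417 on the control and 2432 on the ketogenic diet, a log2 ratio of 0.01 (exact permutation p = 0.738), so the sign of its difference depended on the scaling to library size. Atf3, an early stress-induced transcription factor, had 3633 to 3710 raw reads in all mice, and Hspa5, the ER chaperone BiP, 5037 to 5133, with variances of 0.128 and 0.223 times the mean. Atf3 had a log2 fold change of -0.05 after scaling, but its raw counts were 3633 to 3662 in control and 3668 to 3710 in ketogenic mice, a log2 ratio of 0.01 (exact permutation p = 0.00794, the smallest the test can give). A variance below the mean was found in 5.70% of the 3771 tested genes whose mean count reached 1000. For Atf4 the variance was 1.66 times the mean. The filled share alone did not separate level from varying counts. Hspa5 filled only 35.5% to 36.2% of its positions. Slc38a2, an ATF4 target described below, filled 62.5% to 76.8%, with a variance of 22.5 times the mean. The other 9 genes of the set filled at most 31.8% of their positions, the share of Ddit3. These shares depend on the length used: with the exonic lengths of GENCODE M21, Atf4 filled 49.5% to 53.6% and Ddit3 at most 42.7%.

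**Figure D3:**
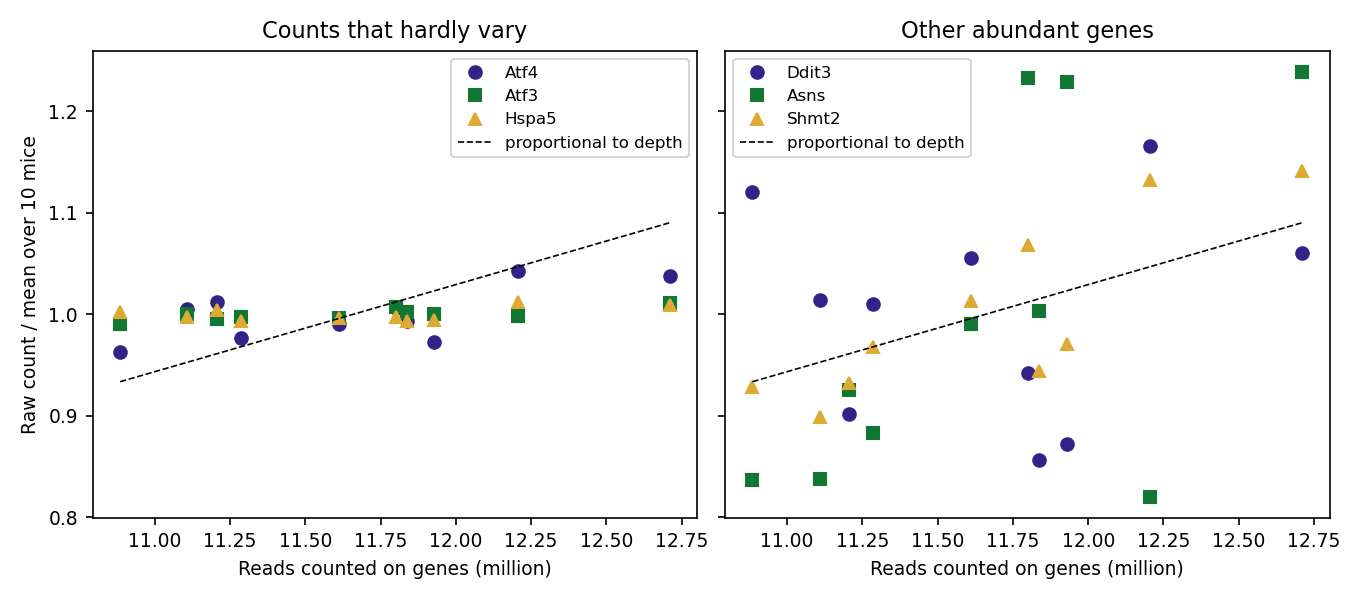
Raw count of a gene divided by its mean over the 10 mice, against the total of reads on genes in that mouse, with a dashed line for counts proportional to depth. Atf4, Atf3 and Hspa5 (left) stay nearly level over libraries of 10885154 to 12710861 reads, whereas Ddit3, Asns and Shmt2 (right) vary between mice.

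Atf5 (chromosome 7 from 44812256 to 44816658), a related factor linked to mitochondrial stress, was counted at 136, 139, 142, 100.01 and 128 in control mice and at 169, 121, 126, 155 and 96.6 in ketogenic mice. The ketogenic mice spread around the whole control range, with a log2 fold change of 0.05 (SE 0.157, adjusted p = 0.906 by edgeR). The sign reversed when control mouse 4 or ketogenic mouse 1 or 4 was left out. Il4i1 and Nup62 share 82 exonic bases each with Atf5 on the other strand, and the library kit does not record strand.

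Ddit3 (chromosome 10 from 127290774 to 127296288) encodes CHOP, which is induced when stress lasts and is tied to cell death. Counts of 1519.6, 1396, 1314, 1193 and 1333 in control mice stood against 1167, 1331, 1056, 1064 and 1213 in ketogenic mice. All ketogenic mice were below control mice 1, 2 and 5, and 3 of 5 were below every control mouse. The means were 1351 ± 120 and 1166 ± 114 (SD, n = 5 each), a fold of 0.863 (95% interval 0.770 to 0.968, log2 fold change -0.21, adjusted p = 0.176 by edgeR). The exact permutation test over mice, without adjustment, gave 0.0476 as its p-value. Control mouse 1, the one with high macrophage markers, also had the highest Ddit3, and without it the log2 fold change was -0.17 (adjusted p = 0.317 by edgeR). With each mouse's macrophage score in the edgeR fit it was -0.19 (adjusted p = 0.293), with the cardiomyocyte score -0.09 (adjusted p = 0.775), and with the score of immediate early genes, which respond to tissue dissociation, -0.12 (adjusted p = 0.670). Ddit3 shares 105 exonic bases with a second annotated gene of the same symbol on its own strand, 68 with Mars and 13 with Gm4189 on the other strand.

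Trib3 (chromosome 2 from 152337422 to 152344032) encodes a pseudokinase that is induced by ATF4 and CHOP and restrains them. Its counts in control mice were 901, 746, 822, 731 and 627, and in ketogenic mice 617, 739, 698, 674 and 718. Control mice 1, 2 and 3 lay above all ketogenic mice, but control mouse 5 lay near the bottom. The log2 fold change was -0.15 (SE 0.0899, adjusted p = 0.409 by edgeR), with -0.08 without control mouse 1 and -0.21 without control mouse 5 (adjusted p = 0.678 and 0.208).

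Asns (ENSMUSG00000029752.12, chromosome 6 from 7675169 to 7693254) encodes asparagine synthetase, a standard readout of ATF4 under amino acid shortage. It was counted at 919, 795, 929.6, 991 and 1013 in control mice and at 1236, 891, 1001, 1214 and 1147 in ketogenic mice. Ketogenic mice 1, 4 and 5 were above every control mouse, and ketogenic mouse 2 was below all but control mouse 2. The means were 929 ± 84.9 and 1098 ± 148 (SD, n = 5 each), a fold of 1.18 (95% interval 1.02 to 1.36, log2 fold change 0.24, adjusted p = 0.208 by edgeR). Permuting the mice exactly gave p = 0.0873. The estimate stayed above 0 in all 23 alternatives, from 0.16 with the immediate early score to 0.31 without ketogenic mouse 2, and its smallest adjusted p was 0.0676.

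Serine synthesis runs from 3-phosphoglycerate through PHGDH, PSAT1 and PSPH. Phgdh (chromosome 3 from 98313170 to 98339990) rested on 12 to 24 reads per mouse, with normalized counts of 16.2, 14.3, 24.8, 21.1 and 16.1 in control mice and 17.8, 18.8, 14.7, 11.7 and 18.2 in ketogenic mice. The diets overlapped, and the coefficient of variation of 23.5% on the control diet was close to the 23.3% that counting alone gives. At this depth the 95% interval of its log2 fold change ran from -0.70 to 0.33 (estimate -0.19, adjusted p = 0.720 by edgeR), so a difference like that estimated for Asns was not detectable. A processed pseudogene, Phgdh-ps1, lies on chromosome 7, and how reads shared with it were counted is not given in the sources used here.

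Psat1 (ENSMUSG00000024640.9, chromosome 19 from 15904678 to 15947337), the aminotransferase of the middle step, had counts of 201, 155, 181, 115 and 162 in control mice and 172, 165, 227, 259 and 226 in ketogenic mice. Ketogenic mice 3, 4 and 5 were above every control mouse, and ketogenic mice 1 and 2 lay within the control range. The means were 163 ± 32.2 and 209.6 ± 39.9 (SD, n = 5 each), a fold of 1.29 (95% interval 1.01 to 1.65, log2 fold change 0.37, adjusted p = 0.268 by edgeR). The exact permutation p-value was 0.0714. The estimate was 0.26 without control mouse 4 and 0.28 without ketogenic mouse 4 (adjusted p = 0.399 and 0.433 by edgeR). With the cardiomyocyte score the log2 fold change was 0.21 (adjusted p = 0.776 by edgeR), and with the immediate early score 0.20 (adjusted p = 0.799). It was larger, at 0.51, with the macrophage score and at 0.45 without control mouse 1 (adjusted p = 0.111 and 0.236).

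Psph (chromosome 5 from 129765558 to 129787449), the phosphatase that releases serine, was counted at 477, 428, 461, 452 and 522 in control mice and at 476, 429, 485, 550.1 and 520.3 in ketogenic mice. The diets covered nearly the same range, with a log2 fold change of 0.07 (SE 0.0797, 95% interval -0.10 to 0.25, adjusted p = 0.670 by edgeR). Cct6a shares 452 exonic bases with Psph on the other strand, so part of these reads cannot be assigned to one of them.

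The mitochondrial enzymes that use serine come next. Shmt2 (chromosome 10 from 127517123 to 127522444), which splits serine into glycine and a one-carbon unit on folate, had counts of 1089, 1172, 1088, 1065 and 1106 in control mice and 1145, 1020.4, 1006, 1024 and 1129 in ketogenic mice. Ketogenic mice 2, 3 and 4 lay below all control mice and the other ketogenic mice lay among the higher control values, with a log2 fold change of -0.05 (SE 0.0507, 95% interval -0.16 to 0.06, adjusted p = 0.625 by edgeR). Mthfd2 (chromosome 6 from 83305691 to 83325908), a mitochondrial folate dehydrogenase and cyclohydrolase, was counted at 299, 272, 282, 225 and 294 in control mice and at 332, 181, 184, 279 and 333 in ketogenic mice. The ketogenic mice fell on both sides of the control range: mice 1 and 5 were above every control mouse and mice 2 and 3 were below every control mouse. The coefficient of variation was 10.7% on the control and 29.0% on the ketogenic diet, where counting alone gives 6.04% and 6.18%, and this difference in spread was not tested. The log2 fold change of -0.07 (SE 0.179, adjusted p = 0.880 by edgeR) changed sign to 0.23 with the cardiomyocyte score and to 0.04 without ketogenic mouse 2 or 3.

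**Figure D4:**
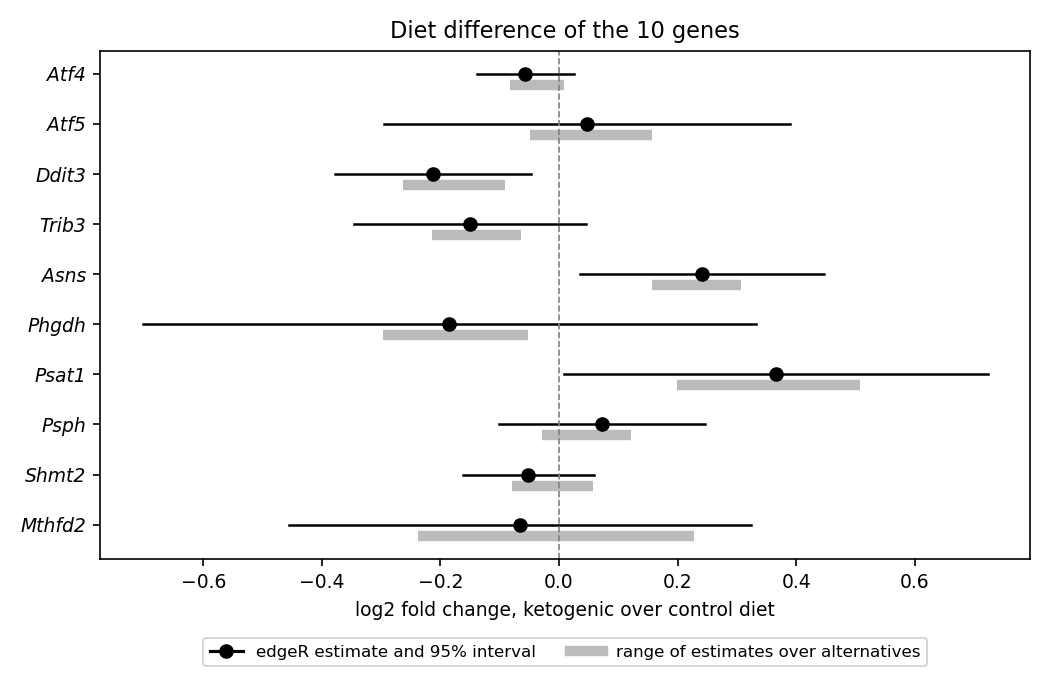
Log2 fold change of each gene, ketogenic over control diet, with the 95% interval from edgeR (black, n = 5 mice per diet) and the range of estimates over the alternative analyses (grey). Only the intervals of Ddit3, Asns and Psat1 leave out 0, and the grey ranges of Atf4, Atf5, Psph, Shmt2 and Mthfd2 cross 0.

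Upstream of Atf4, a list of 18 genes was tested. It held genes for the eIF2 kinases, eIF2, its exchange factor eIF2B and the eIF2 phosphatase, and also Eif2a, Dele1, Oma1 and Nck1. With adjustment edgeR and DESeq2 called none. Without adjustment 1 of 18 had a p-value under 0.05 by edgeR, against 17.8% of all tested genes. The median log2 fold change of the 18 genes was -0.01. Eif2ak1, the heme-regulated kinase, had a log2 fold change of -0.02, Eif2ak2, the double-stranded RNA kinase PKR, 0.11, Eif2ak3, the ER kinase PERK, 0.04, and Eif2ak4, the amino acid sensor GCN2, -0.07 (adjusted p = 0.906, 0.415, 0.821 and 0.828 by edgeR). Ppp1r15a encodes GADD34, the inducible subunit that removes the phosphate from eIF2. Its counts were 4569, 4202, 4365, 4408 and 4255 in control mice and 4064, 4381, 3938, 3957 and 3752 in ketogenic mice. As for Atf4, ketogenic mouse 2 was inside the control range and the other 4 ketogenic mice were below it (log2 fold change -0.12, adjusted p = 0.165 by edgeR). Unscaled, the log2 ratio was -0.05 (exact permutation p = 0.0159). Ppp1r15b, the constitutive partner, had a log2 fold change of -0.02 (adjusted p = 0.882).

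Of 32 other known ATF4 targets, 30 had enough reads to be tested, Fgf21 and Cth having too few. One was called by edgeR, Pycr1, against 1.34% of all genes. DESeq2, run on all genes with reads, called 5 of 32, of which 2 were higher and 3 lower, against 806 of 32378 genes. Many of these 32378 had too few reads for the edgeR test, which kept 15949, so the 2 shares are not alike in read depth. Without adjustment 11 of 30 had a p-value under 0.05 by edgeR, against 17.8% of all genes. Of these, 3 were upward and 8 downward with the ketogenic diet, against 8.57% and 9.26% of all genes. The log2 fold change was below 0 in 24 of 30, beside 51.4% of all tested genes. The median was -0.11, beside -0.01 over all tested genes. In 5 of 30 genes the diets did not overlap, with 2 above and 3 below the control mice, beside 4.34% of all genes.

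Pycr1 (ENSMUSG00000025140.15) encodes the mitochondrial reductase of the last step of proline synthesis. It rose on the ketogenic diet, from 20.5, 26.7, 29.0, 27.4 and 38.2 in control mice to 62.2, 49.1, 66.8, 67.1 and 51.9 in ketogenic mice. Every ketogenic mouse was above every control mouse, at a fold of 2.09 (95% interval 1.58 to 2.76, log2 fold change 1.06, SE 0.186, adjusted p = 0.0203 by edgeR). Its adjusted p by edgeR rose to 0.228 with the cardiomyocyte score, 0.199 with the immediate early score and 0.0686 with the replicate number as a block. It was 0.0613, 0.0505 and 0.0535 without control mouse 2, control mouse 3 and ketogenic mouse 4. The log2 fold change of count-based fits stayed at 0.87 or above.

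Chac1, which degrades glutathione and is a sensitive target of the ATF4 and CHOP branch, had counts of 132, 140.2, 108, 113 and 146 in control mice and 69.1, 102, 61.9, 88.4 and 97.5 in ketogenic mice. Every ketogenic mouse was below every control mouse, but the difference did not pass adjustment (log2 fold change -0.61, SE 0.159, adjusted p = 0.0805 by edgeR). Vldlr, the receptor for very low density lipoprotein, had counts of 25.9, 38.1, 47.6, 35.8 and 8.05 in control mice and 55.3, 86.8, 90.3, 108 and 61.0 in ketogenic mice. These also did not overlap, in the other direction (log2 fold change 1.36, SE 0.347, adjusted p = 0.0743 by edgeR). Slc38a2, an amino acid transporter, and Herpud1, a gene of ER-associated degradation, had log2 fold changes of -0.14 and -0.12 without overlap (adjusted p = 0.0781 for both by edgeR). Slc38a2 filled 62.5% to 76.8% of its start positions, and unscaled both genes overlapped between the diets, with log2 ratios of -0.08 and -0.05 (exact permutation p = 0.167 and 0.278).

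The other ATF4 targets described by rule gave no call. Slc7a11, the cystine transporter, had only 5 to 21 reads per mouse and a log2 fold change of -0.62 (SE 0.310, adjusted p = 0.317 by edgeR). Log2 fold changes were -0.05 for Atf3, -0.07 for Sesn2, a sensor that restrains mTORC1, 0.16 for Cebpb, a dimer partner of ATF4, -0.02 for Pck2, the mitochondrial PEPCK, and -0.07 for Aldh1l2, a mitochondrial folate enzyme (adjusted p = 0.512, 0.790, 0.552, 0.708 and 0.885 by edgeR). The sign for Atf3 turned without scaling, as given above. In all, 13 genes of the set and of this list carried the CARE letters and 12 of them were tested. Of these 12, 4 had an estimate above 0 and 8 below 0, from -0.65 to 1.36, beside 51.4% of all tested genes below 0. Those above included Vldlr, Pycr1 and Asns, and those below included Chac1, Trib3, Slc7a11, Herpud1, Pck2 and Atf3.

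Of 23 genes for folate and glycine metabolism beside Shmt2 and Mthfd2, 21 were tested and edgeR called none. Without adjustment 4 of 21 had a p-value under 0.05 by edgeR, against 17.8% of all tested genes. Of these, 1 was higher and 3 were lower, against 8.57% and 9.26% of all tested genes. DESeq2 called 1 of 23, which was lower, against 806 of 32378 genes, again a set with many genes of few reads. Aldh1l1, a cytosolic folate dehydrogenase, had counts of 824, 731, 1439, 1262 and 1613 in control mice and 476, 543, 762, 909.6 and 566 in ketogenic mice. All ketogenic mice were below the control median but the ranges overlapped (log2 fold change -0.85, SE 0.234, adjusted p = 0.0943 by edgeR). Slc46a1, a folate transporter, was the 1 gene of 21 whose counts did not overlap, beside 4.34% of all tested genes. Its counts were 53.8 to 70.6 in control mice and 72.1 to 121 in ketogenic mice (log2 fold change 0.57, adjusted p = 0.109 by edgeR). Mtfmt, which formylates the mitochondrial initiator tRNA, had a log2 fold change of -0.25 (adjusted p = 0.160 by edgeR). Shmt1, the cytosolic counterpart of Shmt2, stood at 0.02, Mthfd1l at -0.15 and Mthfd2l at 0.24 (adjusted p = 0.972, 0.623 and 0.575 by edgeR).

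Among 20 cytosolic tRNA synthetases, many of them ATF4 targets, edgeR and DESeq2 called none. By edgeR 1 of 20 had an unadjusted p-value under 0.05, against 17.8% of all tested genes. This was Gars, the glycine enzyme (log2 fold change -0.23, adjusted p = 0.220 by edgeR). The median of the 20 synthetases was -0.03. Of 20 genes for ER chaperones and the ATF6 and XBP1 branches, both tools called none. By edgeR 2 of 20 had an unadjusted p-value under 0.05, against the same 17.8%. These were Ern1, the sensor IRE1, at -0.38, and Canx, calnexin, at 0.07 (adjusted p = 0.183 and 0.213 by edgeR). Xbp1 stood at -0.11 and Hspa5 at -0.07 (adjusted p = 0.559 and 0.375), the latter with the nearly level raw counts described above. All 12 genes for mitochondrial chaperones and proteases were tested, and none was called by edgeR or DESeq2 or had an unadjusted p-value under 0.05 in edgeR.

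**Figure D5:**
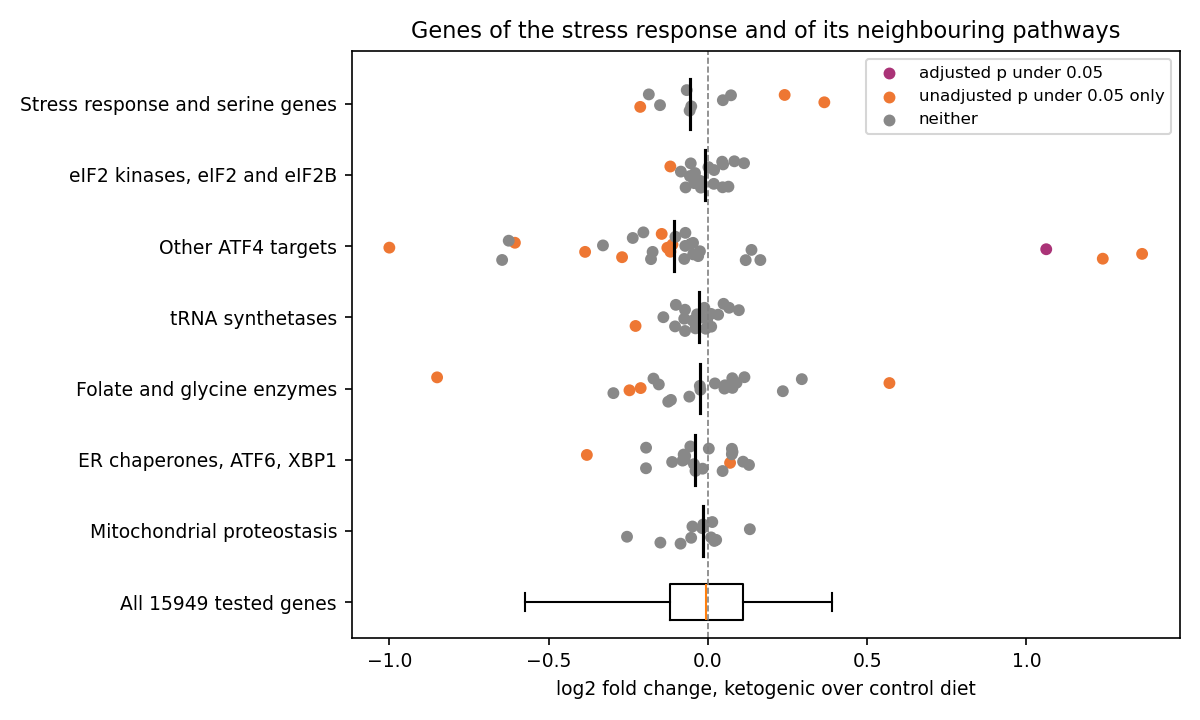
Log2 fold change of every tested gene, ketogenic over control diet, in the set of 10 genes and in 6 lists of neighbouring pathways, with a black line at each median and a box for all 15949 tested genes (median, quartiles, whiskers at the 5th and 95th percentile). Pycr1, at 1.06, is the only gene of these lists with an adjusted p under 0.05, and the medians run from -0.11 to -0.01.

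Finally, the 10 genes were compared between mice of the same diet. With the diet means removed, Pearson's r of log2 CPM (counts scaled to library size) was computed for 45 pairs over 10 mice, and none passed Benjamini-Hochberg adjustment by permutation (5 of 45 had an unadjusted p-value under 0.05). Values of r ran from -0.68 to 0.75 with a median of 0.04. Shmt2 and Mthfd2, the consecutive mitochondrial enzymes, had r = 0.74 (permutation p = 0.0136, adjusted p = 0.320) and Spearman's rho = 0.64 (permutation p = 0.0541, adjusted p = 0.503). Without the 2 mice farthest from the median of Shmt2, r was 0.81. Asns and Psph had r = 0.75 (permutation p = 0.0142, adjusted p = 0.320) and rho = 0.54 (permutation p = 0.115, adjusted p = 0.647), but r was 0.35 without 2 mice. For Atf4, r was 0.29 with Ddit3 and 0.27 with Trib3 (permutation p = 0.412 and 0.449, adjusted p = 0.749 for both). Of the other pairs with Atf4, the strongest were negative, at -0.68 with Psph and -0.66 with Psat1 (permutation p = 0.0325 and 0.0361, adjusted p = 0.325 for both), with rho of -0.61 and -0.42 (permutation p = 0.0671 and 0.234). Without the 2 mice farthest from the median of Atf4 these were -0.41 and -0.15. The raw counts of Atf4 were nearly level, so its scaled value depends on the library total. On the ketogenic diet it was highest in the smallest library (mouse 2, 11108020 reads) and lowest in the largest (mouse 5, 12710861 reads). On the control diet it was lowest in the largest library (mouse 2) but highest in mouse 4, not in the smallest. The part of this in the values of r was not tested. The 5 tested genes outside the set whose profile over the 10 mice was most like the mean of the 10 genes were Fam49b, Fkbp9, Mtmr3, Cd69 and Ahcy (r = 0.95, 0.94, 0.93, 0.92 and 0.91, n = 10 mice, given as a description). The points share their libraries and normalization, and Mthfd2, with r = 0.82, followed that mean most closely of the 10.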

How the data were processed

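CD31+ cells of 10 mice were sequenced as 50-base single reads with the SMART-Seq kit from 10 ng of RNA. The authors deposited raw counts per gene and RPKM per gene, the same counts scaled by the authors to gene length and to counted reads. The submitters' processing notes name bcl2fastq 2.17.1.14, STAR 2.3, HTSeq 0.6.0 and mm10. The annotation release and any removal of duplicate reads are not given in the sources used here. Library totals were 10885154 to 12710861 reads, and their number limits low genes most.

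Counts were tested with edgeR 4.0.16 in R 4.3.3 (TMM, filterByExpr, quasi-likelihood F-test, Benjamini-Hochberg over 15949 genes). The standard error is the log2 fold change over the root of F. Single genes and marker sums were compared by two-sided exact permutation over 252 groupings, with a smallest p of 0.00794, and pairs of genes by 100000 permutations. Symbols and positions are from GENCODE M21 on GRCm38 (46488 of 46983 identifiers matched without version), and promoters from RefSeq on GRCm38.p6. Scripts were tested on simulated data.

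The 10 genes, the gene lists and the tests were chosen with earlier results of these data known. Named genes are the 10, 18 regulators and targets listed by name, genes of each list with adjusted p under 0.05 (up to 6) or the smallest unadjusted p under 0.05 (up to 4), and the 5 genes most like the mean profile. Others were chosen after their values were seen. A gene that meets this rule is not reported here. Alternatives were other scalings and filters, DESeq2 1.42.0, limma 3.58.1 on log2 of RPKM plus 1 or 0.1, the replicate number as a block, cardiomyocyte and immediate early marker scores as covariates, and each mouse left out. A macrophage score, a correction for start positions, unscaled counts of Atf4 and 5 other genes, and levels per exonic length were added after seeing the data.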

Additional observations from a re-analysis of the deposited data

Results flagged for a closer look

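Of 78 groups of 5 mice examined (the named genes on each diet), 2 held a mouse far from the other 4 by Dixon's ratio, where chance alone flags about 1 in 20, or 3.9 of 78. None of them was in the 10 genes. Eif2ak2, the kinase PKR, was lowest in ketogenic mouse 2, with 1493 normalized counts against 1706 to 1789.8 in the other ketogenic mice (ratio 0.717). Xbp1, the transcription factor of the IRE1 branch, was lowest in ketogenic mouse 4, with 536 against 650.3 to 697 (ratio 0.711).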

How the results depend on the processing

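None of the 10 genes had an adjusted p under 0.05 in any of 23 alternatives. The count of all genes called, 213, became 806 with DESeq2, 20 with the cardiomyocyte score, 20 with the immediate early score, 113 with the replicate block, and 86 (without control mouse 2) to 492 (without ketogenic mouse 2) with a mouse left out. The count of the 10 genes with an unadjusted p under 0.05, 3, became 0 with either of these scores and ranged from 1 to 4 with a mouse left out. The count of other ATF4 targets called, 1, became 5 with DESeq2, 0 with the cardiomyocyte score, 0 with the immediate early score, 0 with the replicate block, and 0 to 4 with a mouse left out (4 without ketogenic mouse 2). For folate and glycine genes it went from 0 to 1 with DESeq2 and 1 with the cardiomyocyte score. For the 18 genes upstream of Atf4 it went from 0 to 1 without ketogenic mouse 2. Log2 fold changes reversed to 0.00725 for Atf4 and -0.0292 for Psph with the immediate early score, to 0.0575 for Shmt2 and 0.228 for Mthfd2 with the cardiomyocyte score, to 0.00565 for Mthfd2 with the macrophage score and to 0.00845 for Atf4 in unscaled counts. With a mouse left out, Atf5 ranged from -0.0483 to 0.150 and Mthfd2 from -0.164 to 0.0437. The cause was not tested.

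Mice with the same number did not deviate together (r from -0.13 to 0.09 over 5 numbers). Low values of r cannot show that the numbers pair no mice. The paper compared littermates, and the labels do not say whether a number stands for a litter or a preparation. With the replicate block Pycr1 had a log2 fold change of 1.07 and an adjusted p of 0.0686 in edgeR.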

Other observations

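Some ATF4 targets beyond those described had an unadjusted p-value under 0.05 and are named after their values were seen. Gdf15, a secreted stress hormone, had a mean of 84.1 normalized counts on the control and 199.5 on the ketogenic diet, of which ketogenic mouse 1 had 459. Without that mouse the ketogenic mean was 135, and over all mice the exact permutation p was 0.135. Cbs, a transsulfuration enzyme, had means of 25.3 and 12.6. The adjusted p from edgeR was 0.200 for Gdf15 and 0.157 for Cbs. Lower means on the ketogenic diet were also found for Nupr1, a stress-induced chromatin protein, at -0.27, the glutamine transporter Slc1a5 at -0.39, the heavy chain Slc3a2 of amino acid exchangers at -0.11 and the autophagy gene Map1lc3b at -0.13 (adjusted p = 0.125, 0.215, 0.182 and 0.152). The diets overlapped for these 6 genes.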
